A study of Mus musculus with 27 samples.

Results

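Nodal signalling in the whole mouse embryo was followed through 8 genes, Nodal, Lefty1, Lefty2, Cer1, Dand5, Tdgf1, Cfc1 and Foxh1, taken by their symbols from the RNA-Seq table of 24065 genes. All 8 were found in the table. Of these, 7 reached the mean of 10 counts needed for a test between genotypes, among 15114 genes tested, and Lefty1 did not. Transcripts were measured in single whole E8.5 embryos, 3 WT and 3 Dnmt3b-/- littermates on a C57BL/6J background, with 1 library per embryo. The paper calls these embryos littermates, but the labels give no litter, so whether all of them came from the same litter is not known. The Dnmt3b-/- embryos carry no active DNMT3B, one of the enzymes that lay down new DNA methylation, in any cell, because a floxed Dnmt3b allele had been recombined by a ubiquitous ACTB-Cre deleter and then bred through heterozygous matings. The WT embryos came from the same matings and carried intact Dnmt3b. The question behind the comparison was which transcripts depend on DNMT3B at E8.5. Methylation libraries of the same study were not analysed here.

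Nodal is a secreted ligand of the TGF-beta family. It binds type I and type II activin receptors together with an EGF-CFC co-receptor, Tdgf1 (Cripto) or Cfc1 (Cryptic), and the signal passes through SMAD2, SMAD3 and SMAD4 to Foxh1, the forkhead partner that brings SMADs to DNA. Lefty1, Lefty2, Cer1 and Dand5 encode secreted antagonists. The pathway patterns the epiblast and the primitive streak at gastrulation, and later runs from the node to the left lateral plate, where Nodal and Lefty2 are switched on for a few hours only. The levels of these genes therefore depend closely on the stage of an embryo, and the values below are given for each embryo apart. Because whole embryos were used, fewer cells of a type and less RNA per cell cannot be told apart in any of these values.

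The antagonists Lefty1 and Lefty2 are neighbours on chromosome 1 and near-copies of each other. Lefty1 lies at chr1:180935022-180938401 and Lefty2 at chr1:180893108-180899107, both on the plus strand of GRCm38 (mm10). Over 849 aligned exon bases of Lefty1 the identity was 96.8%, and 173 of its 1547 windows of 75 bases, the read length, were identical in Lefty2 (11.2%). Exons of Lefty2 also share 468 bases at 94.9% identity with another stretch of chromosome 1. Shorter copies lie on chromosomes 3 (233 bases at 91.0%), 7 (187 bases at 90.9%) and 9 (76 bases at 92.1%). Counts of this pair are therefore uncertain where reads fall into shared stretches. The following 75 coding bases show how close Lefty1 and Lefty2 are. They are taken from the RefSeq GRCm38 genome, at chr1:180937770-180937844 for Lefty1 and chr1:180897608-180897682 for Lefty2, and capitals mark the 5 bases that differ.
Lefty1: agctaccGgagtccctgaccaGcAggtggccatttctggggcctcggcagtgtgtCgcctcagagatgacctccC
Lefty2: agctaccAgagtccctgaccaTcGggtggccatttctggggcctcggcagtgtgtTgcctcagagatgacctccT

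Nodal (chr10:61417972-61425338, plus strand) and Cfc1 (chr1:34535648-34544311, plus strand) were both highest in the same WT embryo, as described below, and the 250 bases upstream of their starts are shown for that reason. Both windows are from RefSeq (GRCm38.p6), at chr10:61417722-61417971 and chr1:34535398-34535647. Capitals mark a CAGAC box, the short motif bound by SMAD proteins, on either strand.
Nodal: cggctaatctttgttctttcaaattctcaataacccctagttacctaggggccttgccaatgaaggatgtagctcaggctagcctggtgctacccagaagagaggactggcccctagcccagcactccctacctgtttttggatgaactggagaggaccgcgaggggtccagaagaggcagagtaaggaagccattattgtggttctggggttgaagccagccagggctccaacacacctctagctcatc
Cfc1: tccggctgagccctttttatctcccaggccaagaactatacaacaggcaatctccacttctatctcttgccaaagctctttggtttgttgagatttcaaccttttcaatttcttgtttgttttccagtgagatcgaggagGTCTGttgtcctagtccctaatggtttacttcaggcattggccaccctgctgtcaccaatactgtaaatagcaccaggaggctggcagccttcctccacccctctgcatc
The search used CAGAC and the FOXH1 motifs AATCCACA and AATACACA on both strands. Of the 8 genes, 5 had an entry among the promoter sequences used here, Nodal, Cer1, Dand5, Tdgf1 and Cfc1. The CAGAC box occurred in 4 of these 5 windows, all but that of Nodal, against 42.2% of 32851 promoter windows of the same length. A FOXH1 motif occurred in 0 of the 5, against 1.61% of all windows. These letters do not overlap between the motifs. At so low a share, 0 of 5 windows cannot show that FOXH1 sites are lacking, and bases beyond these 250 were not searched.

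The libraries held 41489332 to 58470286 counts on genes. At this depth 3 counts, the limit that a count of 0 allows, equal 2.37 to 3.49 normalized counts, and this limit covers counting error only. Dnmt3b itself, the targeted gene, was counted in every library. WT embryos 1, 2 and 3 held 7262.8, 13955.8 and 6279.9 normalized counts, and Dnmt3b-/- embryos 1, 2 and 3 held 4062.6, 4541.2 and 4739.8. It was lower in every Dnmt3b-/- embryo (log2 fold change -1.04, SE 0.27, adjusted p = 0.0169, edgeR quasi-likelihood test with Benjamini-Hochberg adjustment). Transcripts of the inactive allele still count on the undeleted exons, so that this measure checks the genotype labels in part. WT embryo 2 stood apart from the other WT embryos. In it 64 tested genes, 0.423% of all, were over 4-fold above both other WT embryos, and 106 were over 4-fold below both. The sum of 10 extraembryonic endoderm genes (such as Afp, Ttr and Apob, which mark the visceral endoderm and yolk sac) was 182288 normalized counts in WT embryo 2 and 11642 to 57697 in the other embryos. Of these 10 genes 9 were highest in WT embryo 2. The sum of 10 erythroid genes was 12237 in WT embryo 2, the lowest of the 6 embryos, against 15338 to 67828. By gene, WT embryo 2 and Dnmt3b-/- embryo 3 were each the lowest for 4 of the 8 tested erythroid genes. They were the lowest for 20.7% and 28.9% of all tested genes. Of 9 trophoblast and decidua genes, Tpbpa and the 3 prolactin genes Prl3d1, Prl2c2 and Prl8a2 were at 0 in all embryos, Gcm1 was too rare for a test, and the other 4 were present in every embryo, from 8.8 (Ascl2) to 742.0 normalized counts (Plac1). The 12 markers of the embryo proper were all present, and their sum ranged from 20022 to 23965. Among the Dnmt3b-/- embryos, embryo 3 stood apart too, with 265 tested genes over 4-fold below both others and 25 over 4-fold above. It was the lowest of the 6 embryos for 9 of the 10 extraembryonic endoderm genes, against 28.9% of all tested genes. The results for the 8 genes are given with and without WT embryo 2, and those without Dnmt3b-/- embryo 3 follow them.

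The ligand Nodal was rare in all embryos and uneven between them. Its normalized counts were 14.2, 80.1 and 12.3 in WT embryos 1, 2 and 3, and 15.0, 4.7 and 0.0 in Dnmt3b-/- embryos 1, 2 and 3. WT embryo 2 was 6.03-fold above the mean of the other WT embryos, and Dnmt3b-/- embryo 1 lay just above both of these, so that the genotypes overlapped. The 0 in Dnmt3b-/- embryo 3 allows up to 3 counts. The fit of Dnmt3b-/- against WT gave a log2 fold change of -2.36 (SE 1.11), which did not pass (adjusted p = 0.132, edgeR). Leaving out WT embryo 2 gave -0.98 (SE 1.03, adjusted p = 0.506, edgeR).

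**Figure D1:**
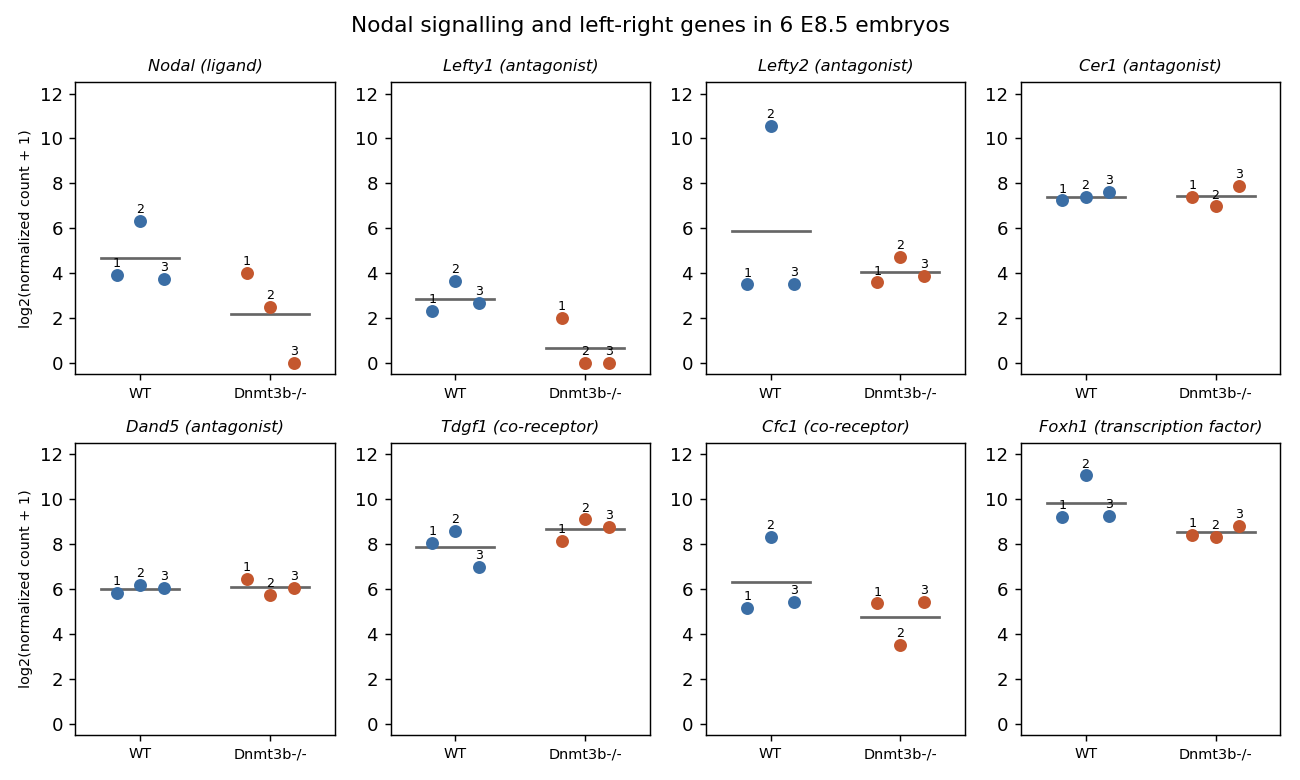
Each panel plots 1 gene as log2(normalized count + 1) for the 3 WT (blue) and 3 Dnmt3b-/- embryos (orange), numbered by embryo, with a line at the group mean on this scale. Nodal, Lefty2, Cfc1 and Foxh1 are highest in WT embryo 2, where Lefty2 reaches 1516.3 normalized counts, while Cer1 and Dand5 stay within a narrow range in all 6 embryos.

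The antagonists split into a pair that was rare in most embryos and a pair that varied less between embryos. Lefty2, the antagonist of the left lateral plate and of the early mesoderm, had 10.3, 1516.3 and 10.6 normalized counts in WT and 11.0, 25.6 and 13.6 in Dnmt3b-/- embryos. WT embryo 2 was 145-fold above the mean of WT embryos 1 and 3. These other WT embryos lay just below all 3 Dnmt3b-/- embryos, as holds for 29.4% of tested genes when WT embryo 2 is set aside. The fitted log2 fold change was -4.93 (SE 1.82, adjusted p = 0.066, edgeR) with all embryos and 0.67 (SE 0.68, adjusted p = 0.486, edgeR) without WT embryo 2, so that 1 embryo set the sign. Lefty1, which acts at the midline, had 3.9, 11.4 and 5.3 normalized counts in WT and 3.0, 0.0 and 0.0 in Dnmt3b-/- embryos. All WT embryos were above all Dnmt3b-/- embryos, as holds in this direction for 26.5% of tested genes. These values rest on 21 raw counts in WT and 3 in Dnmt3b-/- embryos, a ratio of 5.87 with an exact counting interval of 1.75 to 30.7 (95%). Leaving out WT embryo 2 gave a ratio of 4.20 (1.11 to 23.4), and the remaining embryos did not overlap in this direction for 32.2% of tested genes. The interval covers counting error only, and Lefty1 was too rare for the test. A predicted gene, Gm39715, crosses Lefty1 on the minus strand and was not in the table.

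Cer1 and Dand5 had small fitted changes with all embryos. Cer1, which encodes Cerberus and is made in anterior endoderm and early mesoderm, had 150.0, 165.9 and 193.2 normalized counts in WT and 167.8, 124.5 and 238.3 in Dnmt3b-/- embryos. The range of the Dnmt3b-/- embryos spanned that of WT. Its log2 fold change was 0.06 (SE 0.27, adjusted p = 0.886, edgeR), and 0.04 without WT embryo 2. Dand5, the antagonist of Nodal at the right side of the node, had 55.3, 71.0 and 64.4 normalized counts in WT and 85.9, 52.3 and 65.5 in Dnmt3b-/- embryos. These groups overlapped too, with a log2 fold change of 0.10 (SE 0.31, adjusted p = 0.828, edgeR) and of 0.19 without WT embryo 2. With the dependence on exonic GC content and length removed, Dand5 was at 0.46 (SE 0.30, adjusted p = 0.292, edgeR). Neither gene was raised in WT embryo 2, which was 0.967-fold and 1.19-fold of the mean of the other WT embryos for Cer1 and Dand5.

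Both EGF-CFC co-receptors were measured, and they differed in which embryos were high. Cfc1 had 34.7, 318.1 and 42.3 normalized counts in WT and 39.9, 10.47 and 41.8 in Dnmt3b-/- embryos. WT embryo 2 was 8.25-fold above the mean of the other WT embryos, and Dnmt3b-/- embryo 2 was the lowest of all. The log2 fold change was -2.08 (SE 0.90, adjusted p = 0.109, edgeR), and -0.32 (SE 0.61, adjusted p = 0.727, edgeR) without WT embryo 2. With DESeq2 in place of edgeR it passed (-2.09, adjusted p = 0.0254, DESeq2). Exons of Cfc1 are crossed on the minus strand by predicted exons of Prss40, which had 0 counts in all embryos.

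Tdgf1 went the other way. It had 267.7, 382.2 and 124.4 normalized counts in WT and 281.6, 547.9 and 438.3 in Dnmt3b-/- embryos, and the lowest value was that of WT embryo 3. With all embryos the genotypes overlapped and the log2 fold change of 0.71 (SE 0.39) did not pass (adjusted p = 0.194, edgeR). With WT embryo 2 left out, WT was below every Dnmt3b-/- embryo, as holds for 29.4% of tested genes. The log2 fold change of 1.10 (SE 0.37) was then called (adjusted p = 0.0458, edgeR). In that comparison 2.06% of genes were called higher and 17.0% passed the adjusted p alone in this direction. Leaving out WT embryo 3 in its place gave 0.38 (adjusted p = 0.386, edgeR). With all embryos and the GC content and length correction it was 0.446 (SE 0.385, adjusted p = 0.43, edgeR). Tdgf1 exons hold 45.4% GC, the lowest of the 8 genes. Tdgf1 (chr9:110939608-110946158, minus strand) shares 1009 bases at 96.7% identity and 881 bases at 93.1% with nearby stretches of chromosome 16. Together these span exon bases 66 to 1922 of its 1927. It also shares 433 bases at 90.3% with chromosome 17. Its counts are uncertain to the extent that reads were assigned between Tdgf1 and these copies.

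Foxh1 (chr15:76667829-76671614, minus strand) was the only one of the 7 tested genes called between the genotypes with all embryos. A call means that the adjusted p was under 0.05 with over 2-fold between genotypes, and it applied to 3.78% of tested genes in the lower and 2.12% in the higher direction. None of the 7 was called higher, and at an unadjusted p below 0.05 there were 0 higher and 3 lower (edgeR). Of all tested genes 17.6% as higher and 18.1% as lower passed the adjusted p (edgeR). At least these shares therefore passed the unadjusted p. DESeq2 called 2 of the 7 lower, Foxh1 and Cfc1, and over all genes it called 595 lower and 352 higher. Foxh1 had 589.9, 2128.6 and 603.3 normalized counts in WT and 342.5, 318.7 and 448.5 in Dnmt3b-/- embryos. WT embryo 2 was 3.57-fold above the mean of the other WT embryos. Every WT embryo was above every Dnmt3b-/- embryo, as holds in this direction for 26.5% of tested genes. The log2 fold change was -1.58 (SE 0.48, adjusted p = 0.0334, edgeR). The embryos still did not overlap when WT embryo 2 was left out, as holds in this direction for 32.2% of tested genes. The log2 fold change was then -0.69 (SE 0.18, adjusted p = 0.0179, edgeR). This is under the 2-fold of the call, which 3.56% of genes met there. Across all genes 17.6% passed that adjusted p in the lower direction without this embryo, and 18.1% with it. The call also ended when the dependence of each library on exonic GC content and length was removed (-1.06, SE 0.50, adjusted p = 0.154, edgeR). Foxh1 exons hold 59.2% GC, the highest of the 8 genes, and under this correction 156 genes were called lower and 280 higher, in place of 571 and 320 (1.03% and 1.85%). Without Dnmt3b-/- embryo 1, 2 or 3 the adjusted p was 0.095, 0.116 and 0.076 (edgeR), at log2 fold changes of -1.73 to -1.48.

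**Figure D2:**
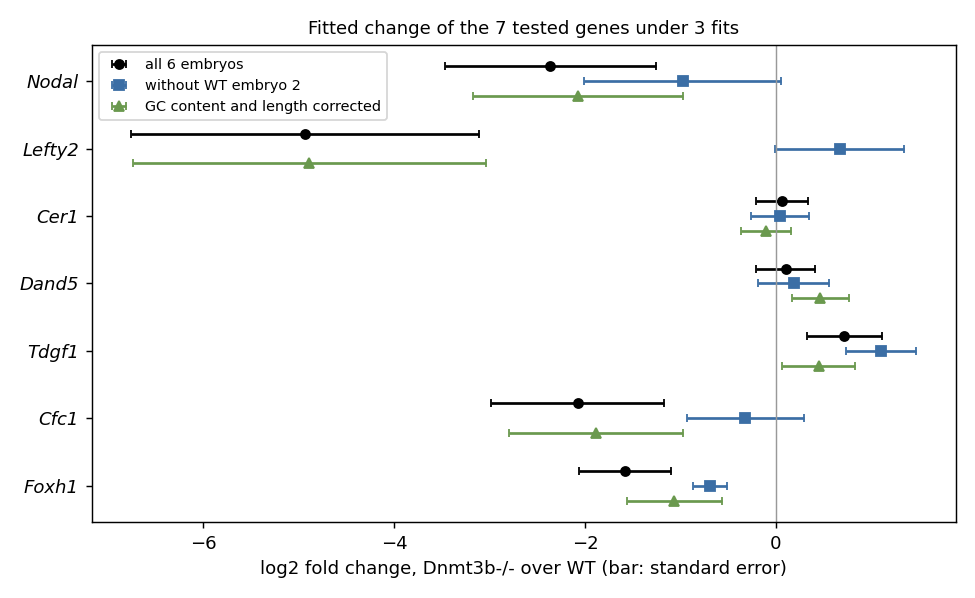
The plot shows the fitted change (log2, Dnmt3b-/- over WT) of the 7 tested genes, with standard errors as bars, for all 6 embryos (black circles), without WT embryo 2 (blue squares) and with the GC content and length correction (green triangles). Lefty2 moves from -4.93 to 0.67 when WT embryo 2 is left out, Nodal and Cfc1 move towards 0, and Foxh1 stays below 0 in all 3 fits.

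WT embryo 2 was the highest of the 6 embryos for 4 of the 7 tested genes, Nodal, Lefty2, Cfc1 and Foxh1, against 19.5% of all tested genes. For 3 of them, Nodal, Lefty2 and Cfc1, it was over 4-fold above both other WT embryos on the scale of log2(normalized count + 1), as it was for 0.423% of all. Genes that depend on stage were uneven in the same embryo, but not as whole lists. Of 10 gastrulation stage genes 5 were highest there and 0 lowest, and of 14 organ stage genes 2 were highest and 9 lowest, against 19.5% and 20.7% of all tested genes. The choice of the next 3 genes was made knowing their values. Pou5f1, a pluripotency gene that is shut down after gastrulation, had 71.1, 836.5 and 68.8 normalized counts in WT and 29.0, 32.6 and 93.8 in Dnmt3b-/- embryos. Eomes, a Nodal target in the streak, had 25.3, 111.0 and 9.7 in WT and 21.0, 5.8 and 32.8 in Dnmt3b-/- embryos. Sox10, a neural crest gene, had 930.3, 161.4 and 1086.6 in WT and 972.7, 1002.7 and 1095.7 in Dnmt3b-/- embryos. WT embryo 2 was thus the highest in Pou5f1 and Eomes and the lowest in Sox10. The summed organ stage genes were 21913 normalized counts there and 28858 to 41004 in the other embryos, and the summed gastrulation stage genes were 4470 there and 1932 to 3257 elsewhere. The part of these stage, erythroid and extraembryonic endoderm genes in the values of Nodal, Lefty2, Cfc1 and Foxh1 was not tested.

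When Dnmt3b-/- embryo 3 was left out, none of the 7 tested genes was called. The log2 fold changes were -1.78 for Nodal, -4.81 for Lefty2, -2.34 for Cfc1, -1.73 for Foxh1, 0.70 for Tdgf1, -0.20 for Cer1 and 0.14 for Dand5 (adjusted p from 0.076 for Foxh1 to 0.78 for Dand5, edgeR). Cer1 changed sign, and the others kept their direction.

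**Figure D3:**
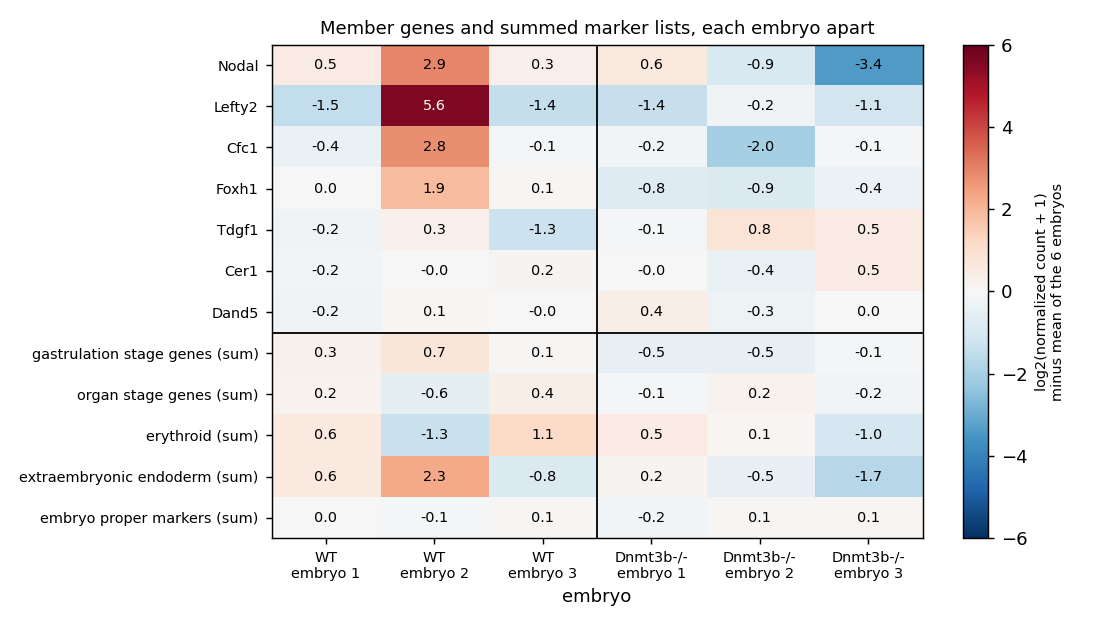
The heat map gives log2(normalized count + 1) minus the mean of the 6 embryos, for 7 genes of the pathway (top) and for the summed counts of 5 marker lists (bottom), with 1 column per embryo. WT embryo 2 holds the highest values for Lefty2 (5.60), Nodal (2.92), Cfc1 (2.78), Foxh1 (1.88), gastrulation stage genes (0.71) and extraembryonic endoderm (2.27), and the lowest for erythroid (-1.33) and organ stage genes (-0.55).

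In levels per length, Foxh1 led in both genotypes, with a mean of 16.9 ± 13.5 FPKM (SD, n = 3) in WT and 5.64 ± 1.05 FPKM in Dnmt3b-/- embryos. In WT, Lefty2 followed with 4.31 ± 7.31 FPKM, Tdgf1 with 2.79 ± 1.397, Cfc1 with 2.64 ± 3.24, Cer1 with 2.03 ± 0.261, Dand5 with 0.788 ± 0.0976, Nodal with 0.354 ± 0.384 and Lefty1 with 0.0886 ± 0.0514 FPKM. Only Cer1 and Dand5 were neighbours in this order whose embryos did not overlap. In Dnmt3b-/- embryos the order was Foxh1, Tdgf1 (4.57 ± 1.45 FPKM), Cer1 (2.12 ± 0.687), Dand5 (0.842 ± 0.210), Cfc1 (0.617 ± 0.353), Lefty2 (0.141 ± 0.0656), Nodal (0.0651 ± 0.0762) and Lefty1 (0.0128 ± 0.0222). There Tdgf1 and Cer1, and Cer1 and Dand5, did not overlap. From WT embryos 1 and 3 alone the mean of Lefty2 was 0.0877 FPKM and that of Cfc1 was 0.774, which places both below Cer1.

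The receptors of the pathway are used by Nodal and by activins. All 4 listed receptors were tested. Their log2 fold changes had a median of -0.36, against -0.03 over all tested genes, and 1 gene passed the adjusted p in each direction, where 17.6% of all tested genes passed as higher and 18.1% as lower. Acvr2b, a type II receptor, fell from 1340.1, 1266.8 and 1405.0 normalized counts in WT to 734.0, 665.4 and 675.5 in Dnmt3b-/- embryos. Its log2 fold change was -0.95 (SE 0.10, adjusted p = 0.000717, edgeR), just under the fold of the call, and -0.80 with the GC content and length correction (adjusted p = 0.00151, edgeR). The genotypes did not overlap, as holds in this direction for 26.5% of tested genes, and WT embryo 2 lay close to the other WT embryos. The value was -0.99 without that embryo (adjusted p = 0.000857, edgeR). Acvr2a, the other type II receptor, rose by 0.40 on the log2 scale (adjusted p = 0.0128, edgeR), had 0.32 without WT embryo 2, where it passed too, and stood at -0.10 with the correction (adjusted p = 0.514, edgeR). The type I receptors Acvr1b and Acvr1c had -0.27 and -0.46 and did not pass.

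Of 6 processing enzymes and partner ligands, 3 were tested, and their median was -0.51 on the log2 scale. Furin, a protease that cleaves the Nodal precursor, fell by 0.94 on the log2 scale (SE 0.22, adjusted p = 0.0109, edgeR). It had -0.78 without WT embryo 2 (adjusted p = 0.0202, edgeR) and -0.36 with the GC content and length correction (adjusted p = 0.241, edgeR). Pcsk6, the other convertase, had -0.27, and Gdf3 had -0.51, and neither passed. Gdf1, the partner of Nodal in the node, was listed at 0 in all embryos. It shares its exons with Cers1 on the same strand, which was listed at 0 as well. Inhba and Inhbb were too rare for a test.

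The intracellular transducers and inhibitors were abundant and moved by small amounts. The median over all 11 was a log2 fold change of 0.23. An adjusted p below 0.05 was reached by 5 that were higher and 3 that were lower in Dnmt3b-/- embryos (edgeR), with none past 2-fold, against 17.6% and 18.1% of all tested genes. Smad4, the common mediator, rose by 0.39 (adjusted p = 0.00295, edgeR), Trim33 by 0.56, Ski by 0.51, Skil by 0.28 and Smad2 by 0.23 on the log2 scale. Ski and Skil encode repressors of SMAD complexes. Smad7, an inhibitory SMAD, fell by 0.50 (adjusted p = 0.0193, edgeR), Tgif2 by 0.38 and Drap1, a corepressor that binds Foxh1, by 0.28. Drap1, the most abundant of the list at 52.7 FPKM, was at 0.30 with the GC content and length correction (adjusted p = 0.0297, edgeR), where its sign turned. With this correction 5 genes were higher, Smad3, Smad4, Ski, Drap1 and Trim33, and 0 were lower, against 12.2% and 13.7% of all tested genes. Leaving out WT embryo 2 gave 5 higher and 3 lower, but Smad2 no longer passed (adjusted p = 0.0595, edgeR) and Tgif1 did (0.33, adjusted p = 0.0435, edgeR).

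**Figure D4:**
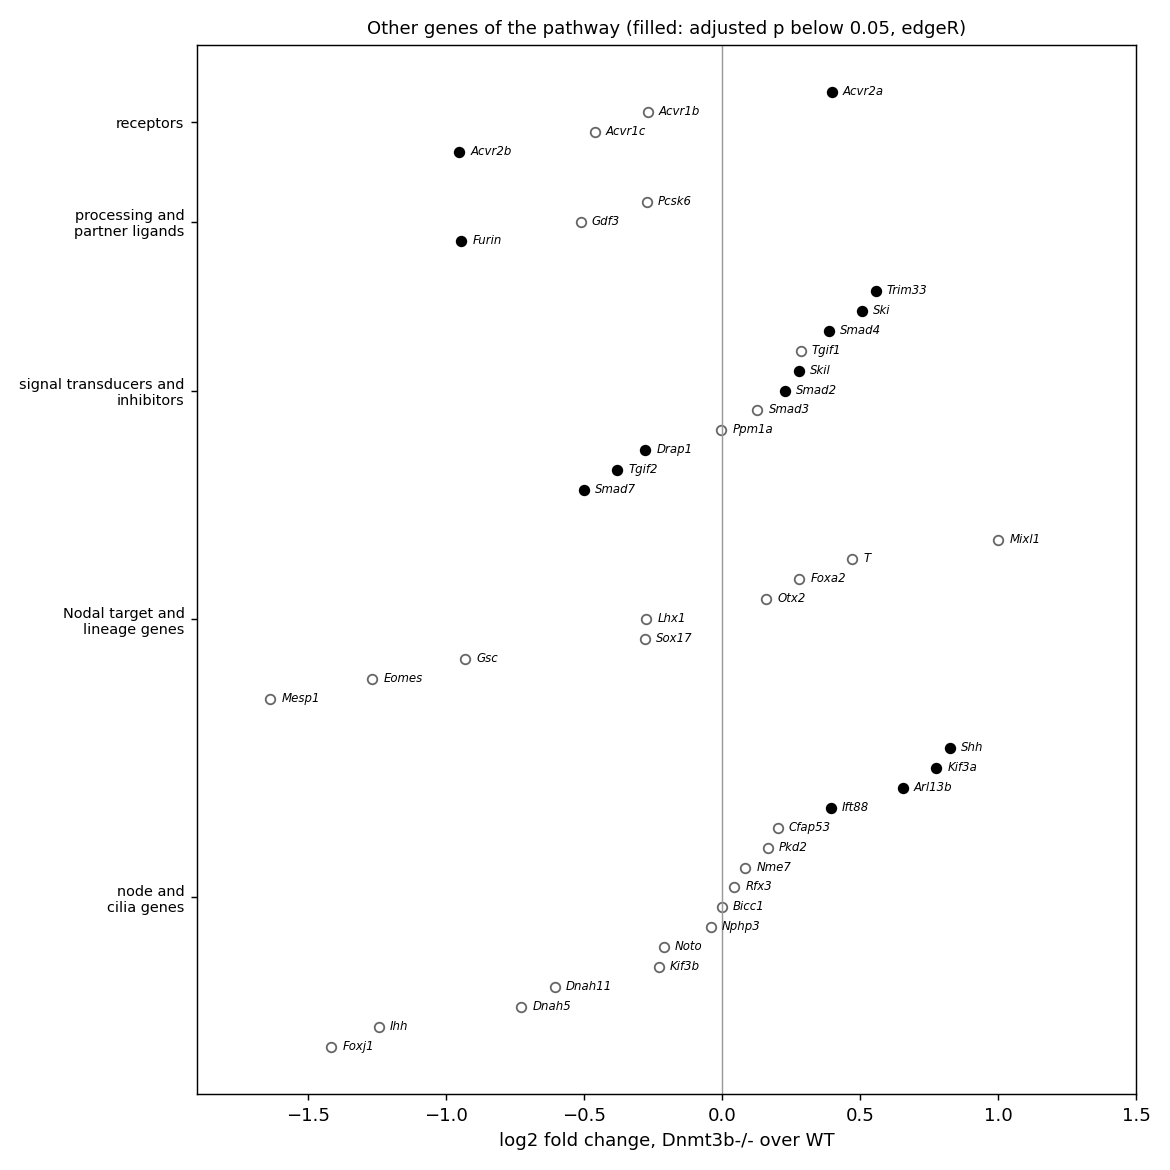
The plot gives the change between genotypes (log2, Dnmt3b-/- over WT) with all embryos for tested genes of 5 lists of the pathway that are reported here, 1 gene per row, filled where the adjusted p of edgeR was below 0.05. Acvr2b (-0.95) and Furin (-0.94) are the lowest filled genes and Shh (0.83) and Kif3a (0.78) the highest, and none of the filled genes passes 2-fold.

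Among 10 genes downstream of Nodal or of the lineages it induces, 0 passed with all embryos in edgeR, where 0 had an unadjusted p below 0.05 as well, and DESeq2 passed 1 gene, T, at under 2-fold. The shares of all tested genes that passed in edgeR were 17.6% as higher and 18.1% as lower. The median log2 fold change of the list was -0.21, and 0.18 without WT embryo 2. Mixl1, a homeobox gene of the streak, had 82.9, 193.4 and 67.9 normalized counts in WT and 146.8, 180.3 and 358.1 in Dnmt3b-/- embryos. Its log2 fold change was 1.00 (SE 0.47, adjusted p = 0.133, edgeR) with all embryos. It was 1.59 (SE 0.40, adjusted p = 0.016, edgeR) and called when WT embryo 2 was left out. In that comparison 2.06% of all tested genes were called higher, and 17.0% passed the adjusted p as higher. T (brachyury), the mesoderm gene with the highest level of the list at 37.2 FPKM, was at 0.47 with all embryos and at 0.73 without WT embryo 2, where it passed the adjusted p alone. Both were, like Tdgf1, lower in WT embryos 1 and 3 than in every Dnmt3b-/- embryo, as holds for 29.4% of tested genes.

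The node and cilia list covers the structure where left-right asymmetry begins. Of its 18 genes 17 were tested, and the median was 0.04. The adjusted p was passed by 4 genes, all higher and all under 2-fold, and by 0 lower (edgeR). Over all tested genes 17.6% passed as higher and 18.1% as lower. There were 2 lower at an unadjusted p below 0.05 (edgeR) and 1 lower in DESeq2, Ihh. The 4 higher genes were Shh, a midline signal (0.83, adjusted p = 0.0118, edgeR), Kif3a, a ciliary motor (0.78, adjusted p = 0.00254, edgeR), Arl13b (0.66) and Ift88 (0.39). Shh, Kif3a and Arl13b passed with the GC content and length correction too, where Rfx3 and Nme7 were lower and Ift88 did not pass. With this correction 12.2% of all tested genes passed as higher and 13.7% as lower. Without WT embryo 2 these 4 genes passed with 0.64 (Shh), 0.70 (Kif3a), 0.70 (Arl13b) and 0.45 (Ift88). The list then had 5 higher, 1 of them called, and 0 lower. Over all tested genes 17.0% then passed as higher, with 2.06% called higher, and 17.6% as lower. Noto, a transcription factor of the node, had 85.3, 114.4 and 113.8 in WT and 101.9, 36.1 and 132.2 in Dnmt3b-/- embryos. Foxj1, which drives motile cilia, had 47.4, 48.1 and 39.7 in WT and 45.9, 3.5 and 0.0 in Dnmt3b-/- embryos, a spread among the Dnmt3b-/- embryos that left its log2 fold change of -1.41 short of the threshold (adjusted p = 0.33, edgeR).

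Of the 10 gastrulation stage genes 2 were called lower, against 3.78% of all tested genes, and the median log2 fold change was -0.64. They were Evx1, a homeobox gene of the streak and tail bud (-1.26, SE 0.30, adjusted p = 0.0123, edgeR), and Wnt3a, a ligand of the same tissues (-1.04, SE 0.23, adjusted p = 0.00907, edgeR). Both passed the adjusted p without WT embryo 2 at less than 2-fold (-0.99 and -0.84), and with the GC content and length correction neither passed (-0.64, adjusted p = 0.189, and -0.63, adjusted p = 0.0744, edgeR). Of the 10 extraembryonic endoderm genes Amn was called lower (-2.59, SE 0.85, adjusted p = 0.0429, edgeR), and it was not called without WT embryo 2 (-1.31). The list's median was -1.18 with all embryos and -0.21 without WT embryo 2. Of the erythroid genes 8 were tested and 0 passed with all embryos in edgeR, against 17.6% of all tested genes as higher and 18.1% as lower. At an unadjusted p below 0.05 there was 1 lower (edgeR), and DESeq2 gave 1 lower, Epor. Without WT embryo 2 the embryonic globin gene Hbb-bh1 was called lower (-1.23, adjusted p = 0.0307, edgeR), as were 3.56% of all tested genes. With all embryos it was at -0.84, and at -0.97 with the GC content and length correction (adjusted p = 0.209, edgeR).

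Over all tested genes 17.6% were higher and 18.1% lower at an adjusted p below 0.05 (edgeR). Without WT embryo 2 these shares were 17.0% and 17.6%, and with the GC content and length correction 12.2% and 13.7%. Of 14 organ stage genes Tnnt2 was higher (0.62) and Nkx2-5 lower (-0.79) at an adjusted p below 0.05 (edgeR), each under 2-fold. Both passed without WT embryo 2 (0.48 and -0.74), where Hand1 (0.66) was higher and Myl7 (-0.91) and Actc1 (-0.53) were lower as well. With the GC content and length correction Tnnt2 (0.92) and Hand1 (0.78) passed, and Nkx2-5 was at -0.03 (adjusted p = 0.928, edgeR). Of 4 tested trophoblast and decidua genes Plet1 was higher (0.83, and 0.88 without WT embryo 2), and it missed the threshold with the correction (adjusted p = 0.0603, edgeR). Of the 12 markers of the embryo proper Sox1 (0.54) and Pax6 (0.85) were higher and Sox2 (-0.48) and Nkx2-5 were lower. These 4 passed without WT embryo 2 too, where T was higher and Myl7 lower as well. With the correction Sox1 and Sox2 passed, and Pax6 did not (adjusted p = 0.0588, edgeR).

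The genes whose pattern over the 6 embryos was nearest to that of a member were found by the root mean square difference of log2(normalized count + 1), each gene centred on its own mean. For Lefty2 these were Lars2 (0.84), Ppp1r1b (1.26), Pou5f1 (1.35), Wnt8a (1.41) and Apoc2 (1.52). On this measure Lefty2 itself deviated by 2.54 from its mean. Lars2, which encodes a mitochondrial tRNA synthetase, had 51314.3 normalized counts in WT embryo 2 and 188.4 to 415.4 in the other embryos. Wnt8a had 60.8, 686.6 and 43.2 normalized counts in WT and 51.9, 64.0 and 152.5 in Dnmt3b-/- embryos, again with WT embryo 2 far above the rest. For Nodal the nearest were Creb3l3 (0.27), Slc13a3 (0.28), Slc39a5 (0.41), Apom (0.42) and Tmem238 (0.44). Creb3l3 had 140.6, 591.6 and 75.9 normalized counts in WT and 89.9, 40.7 and 7.9 in Dnmt3b-/- embryos. It is a gene of liver and gut, and Apom encodes an apolipoprotein. For Foxh1 they were Bhmt2 (0.16), Slc7a3 (0.16), Dnajc22 (0.18), Tmem140 (0.25) and Lpin3 (0.31). Slc7a3 had 139.0, 400.5 and 113.8 in WT and 73.9, 81.4 and 92.6 in Dnmt3b-/- embryos. For Tdgf1 they were H2-Q1 (0.22), Otof (0.23), Usp17la (0.24), Sytl5 (0.27) and Gm13152 (0.27). With 6 embryos that share WT embryo 2 these likenesses are a description only.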

How the data were processed

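RNA-Seq was made by the authors from 6 whole E8.5 embryos with Ribo-Zero depletion and a stranded TruSeq kit. The authors aligned the reads to mm10 with TopHat2 2.0.12 and counted them per RefSeq gene with HTSeq 0.6.0, and the deposited raw counts were used here. Deposited DESeq2 1.4.5 normalized counts, fold changes and adjusted p-values were not used. The strand setting of the counting and the RefSeq release are not given in the sources used here. The members and all gene lists were chosen with earlier results of these data known.

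Genes averaging 10 or more counts (15114) were scaled by TMM and tested for genotype in edgeR 4.0.16 (R 4.3.3, quasi-likelihood), with Benjamini-Hochberg adjustment over all of them. A call needed over 2-fold and an adjusted p under 0.05. The embryos are separate animals, which the paper calls littermates. Normalized counts are counts scaled to the mean library. FPKM and GC content used GRCm38.p6 RefSeq exons, matched for 99.2% of genes. Copies were found with BLAST 2.17.0. Alternatives were other filters, scalings, DESeq2 1.42.0, a replicate block, a correction by splines with 5 degrees of freedom on GC content and length, and leaving out each embryo. The main edgeR fit was tested on simulated data. The 8 genes, called list genes, each list's most abundant gene and the 5 nearest genes of Nodal, Lefty2, Tdgf1 and Foxh1 were named by rule, and other genes were named after their values were seen. Single values of 2 list genes are not reported here.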

Additional observations from a re-analysis of the deposited data

How the results depend on the processing

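Among the 8 genes, 1 (Foxh1, lower) was called with all embryos. With no filter and with DESeq2 there were 2 called lower, and there were 0 with the replicate block, with the GC content and length correction and with both. Leaving out 1 embryo in turn gave 0 to 2 called in all, 0 to 1 higher and 0 to 2 lower. Over all genes 891 were called, 436 with the GC content and length correction and 360 with the replicate block added to it, of which 156 and 137 were lower. Leaving out 1 embryo gave 633 to 1156, with 242 to 381 higher and 391 to 775 lower. The adjusted p alone gave 5395, with 2654 higher and 2741 lower. Without WT embryo 2 Lefty2 changed sign, and with 1 embryo left out it ranged from -5.51 to 0.67. Cer1 changed sign with total counts (-0.022), the GC content and length correction (-0.10) and this with the replicate block (-0.14), and ranged from -0.20 to 0.26 with 1 embryo left out, and Dand5 from -0.094 to 0.26. The causes were not tested beyond these fits. The correlations of same-numbered deviations were -0.05, -0.15 and -0.01, and those of differently numbered embryos lay between -0.083 and 0.135. With 3 embryos per genotype and no litter in the labels, these values cannot decide whether the replicate numbers pair the embryos. With the replicate block Foxh1 had a log2 fold change of -1.29 (adjusted p = 0.0647, edgeR). Total counts moved the median of all genes from -0.03 to -0.11. DESeq2 gave no adjusted p for Lefty2. Lefty1 and Nodal are limited by depth, with at most 11.4 and 80.1 normalized counts.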
